A study of Mus musculus with 2 samples.

Results

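Endothelial-like cells were a small population in cultures grown from the cardiac base of neonatal mice, and they are described here in both of its domains, dorsal and ventral. They were chosen by their own RNA. A cell was a barcode with at least 8000 unique molecular identifiers (UMIs, each standing for 1 captured RNA molecule) of which at most 20% were mitochondrial. A member had at least 1 UMI of at least 4 of the 7 genes Pecam1, Cdh5, Kdr, Tie1, Emcn, Egfl7 and Esam, and fewer than 5 UMIs summed over the macrophage genes C1qa, C1qb, Csf1r and Tyrobp. This gave 108 members among 8926 dorsal cells and 154 among 10649 ventral cells, 262 of 19575 in all. The dorsal library came from the side with the pulmonary veins, the sinoatrial node and the heart's own ganglia. The ventral library came from the side with the outflow tract base, the pulmonary artery and the first stretch of the aorta. The mice were C57Bl6, 3 days old and of both sexes, with no genotype or treatment named. Cells of 15 hearts were pooled by domain, grown as adherent cultures for 5 days, released with trypsin and measured with 10x Genomics 3' chemistry. There was 1 library per domain, so no difference between domains has a replicate check, and the domain cannot be told apart from its dissection, culture or library preparation.

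Endothelial cells line blood vessels, lymphatic vessels and, as endocardium, the chambers of the heart. Arteries, veins and lymphatics each carry their own gene set: Notch signalling and SoxF factors are linked to the arterial state, the nuclear receptor Nr2f2 to the venous state, and the homeobox factor Prox1 to the lymphatic state that arises from veins. Factors of the ETS family, which bind DNA at a GGAA core, take part in switching on many genes shared by all endothelial cells.

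Promoter windows of 300 bases around the annotated start were available for 4 of the 7 genes that define the members, and are printed to show the DNA in front of the genes on which the whole description rests. They are RefSeq sequences on GRCm38.p6, written along the gene's own strand. Capitals mark CAGGAAG or CCGGAAG, a pair of ETS-type motifs, searched on both strands. These lie in 13.27% and 8.858% of all 32851 windows of the same length, and 20.93% hold at least 1 of them. Emcn, which encodes the sialomucin endomucin, had 1 match. Egfl7, which encodes a secreted angiogenic factor, has 3 annotated starts, with 2, 1 and 0 matches, and the first is shown. Kdr, the main VEGF receptor, and Tie1, a receptor tyrosine kinase, had none. A match describes letters in a window; it is neither a bound site nor a cause.
Emcn promoter, chr3:137340828-137341127, plus strand: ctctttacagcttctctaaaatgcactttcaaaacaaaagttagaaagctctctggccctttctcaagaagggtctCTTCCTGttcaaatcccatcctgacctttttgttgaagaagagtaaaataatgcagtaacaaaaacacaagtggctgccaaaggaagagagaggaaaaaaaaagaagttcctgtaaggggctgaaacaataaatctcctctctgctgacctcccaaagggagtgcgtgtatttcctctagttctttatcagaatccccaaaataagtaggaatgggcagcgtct
Egfl7 promoter, chr2:26580833-26581132, plus strand: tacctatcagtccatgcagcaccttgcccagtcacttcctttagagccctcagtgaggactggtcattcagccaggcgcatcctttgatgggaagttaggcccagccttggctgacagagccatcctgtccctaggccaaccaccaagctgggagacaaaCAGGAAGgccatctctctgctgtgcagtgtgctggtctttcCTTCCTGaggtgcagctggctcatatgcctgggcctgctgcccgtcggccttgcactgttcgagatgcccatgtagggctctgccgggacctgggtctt
Kdr promoter, chr5:75978406-75978705, minus strand: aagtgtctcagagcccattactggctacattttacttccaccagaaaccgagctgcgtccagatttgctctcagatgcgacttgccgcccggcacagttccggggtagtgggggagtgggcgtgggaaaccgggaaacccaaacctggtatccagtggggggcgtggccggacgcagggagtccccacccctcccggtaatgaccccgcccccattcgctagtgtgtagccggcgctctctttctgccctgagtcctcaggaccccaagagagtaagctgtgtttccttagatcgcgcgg
Tie1 promoter, chr4:118489800-118490099, minus strand: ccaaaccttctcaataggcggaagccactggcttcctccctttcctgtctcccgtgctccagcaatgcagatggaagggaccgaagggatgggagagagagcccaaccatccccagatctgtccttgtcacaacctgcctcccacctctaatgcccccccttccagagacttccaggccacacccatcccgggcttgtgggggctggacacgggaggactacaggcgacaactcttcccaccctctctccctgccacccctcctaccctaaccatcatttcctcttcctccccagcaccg

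Members made up 1.21% of dorsal cells (95% Clopper-Pearson interval 0.994% to 1.46%) and 1.45% of ventral cells (1.23% to 1.69%). The log2 ratio of these shares, dorsal over ventral, was -0.26 with an interval of -0.63 to 0.11, so no difference was detectable at this depth. Intervals here and elsewhere cover counting error only. Dorsal members had a median of 21014 UMIs and 4786 genes, and ventral members 19836 UMIs and 4565 genes. The other cells had a median of 22789 and 21474 UMIs. The UMIs of dorsal members summed to 2653076 and those of ventral members to 3639920, and 3 counts, the limit that a count of 0 allows, equal 1.13 and 0.824 CPM, counts per 1000000 summed UMIs. All 7 rule genes had a UMI in 66 dorsal and 58 ventral members. Just inside the threshold, 3 dorsal and 13 ventral members had exactly 4. Just outside, 18 dorsal and 24 ventral cells had 3. No barcode with at least 4 of the genes was removed by the macrophage limit, and none of the 22 barcodes shared by the libraries belonged to a member.

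The values that chose the members are given as a description. Cdh5, the cadherin of endothelial junctions, stood at 700.3 CPM in dorsal members and 745.6 CPM in ventral members. Pecam1, the adhesion molecule CD31, stood at 409.7 and 354.4 CPM, and Emcn at 707.1 and 961.6 CPM. Tie1 was at 164.3 and 129.4 CPM, the junction molecule Esam at 337.3 and 315.9 CPM, and Egfl7 at 1409.7 and 1045.9 CPM. Kdr was the one whose level differed at least 2-fold, with 170.4 CPM in dorsal and 59.07 CPM in ventral members. It had a UMI in 82.4% of dorsal and 44.2% of ventral members, or 65.7% and 26.0% after each cell was thinned to 8000 UMIs. In the other cells, Egfl7 was found in 26.6% of dorsal and 13.9% of ventral cells, at 14.97 and 6.96 CPM. Each of the remaining rule genes stood below 2 CPM there, in at most 3.07% of cells of either library.

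The members were also described by a list of 24 further endothelial genes that the rule did not use. In dorsal members 23 of them, and in ventral members 20, were at least 4-fold above the other cells of the same library. Flt1, a VEGF receptor, was the one below 4-fold in dorsal members, with 100.3 CPM against 53.44 CPM in other dorsal cells. In ventral members Flt1, Eng, Ptprb and Cd34 were below it. Over all genes that reached 20 CPM in both dorsal and ventral members, 217 of 5434 (3.99%) stood at least 4-fold above the other cells in both. That share asks for 4-fold in both libraries, whereas the list was counted in each library alone. Since the members were selected on endothelial RNA, all of this is a description of the selection and no check of the label.

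Among genes outside the rule, those that stood furthest above the other cells in both libraries were mostly known for endothelial roles. Cldn5, the claudin of endothelial tight junctions, had 573.3 CPM in dorsal and 314.0 CPM in ventral members, against 0.146 and 0.140 CPM in other cells. The SoxF transcription factors Sox17 and Sox7, the Notch ligand Dll4, the orphan adhesion receptors Adgrl4 and Adgrf5, and Icam2 were in the same group. It also held the small-GTPase interactor Rasip1, the sphingosine-1-phosphate receptor S1pr1, endothelial nitric oxide synthase Nos3, and Gimap1, Gimap5 and Gimap6 of a GTPase family better known from lymphocytes. Nts, which encodes the peptide neurotensin, had 627.2 CPM in dorsal and 948.6 CPM in ventral members, against 0.384 and 0.569 CPM in other cells. It was found in 62.0% of dorsal and 51.3% of ventral members. Of these 25 genes, 19 had a promoter window; 7 of their 23 windows held an ETS-type motif, in Adgrf5, Dusp2, Gimap5, Myzap, Rasip1 and Upp1, beside the 20.93% of all windows given above.

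Some members also carried RNA typical of mesenchymal cells. The summed share of Col1a1, Col1a2, Col3a1, Dcn and Lum, genes of fibroblast matrix, exceeded 20% of the other cells' median in 14 of 108 dorsal members (13.0%, interval 7.27% to 20.8%) and in 47 of 154 ventral members (30.5%, 23.4% to 38.4%). These members had a median of 33904 UMIs (dorsal) and 25936 UMIs (ventral), against 19580.5 and 17768 in the members below that limit. By scores of the caller Scrublet, 9 dorsal and 22 ventral members were marked as doublets, and 9 and 19 of these were above the limit. The 2 counts follow different rules. Ventral cells were marked by its automatic threshold, and dorsal cells by the highest scores up to an expected share. With all members above the limit left out, the log2 ratio of the shares was 0.07. Whether these barcodes held more than 1 cell was not tested.

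**Figure D1:**
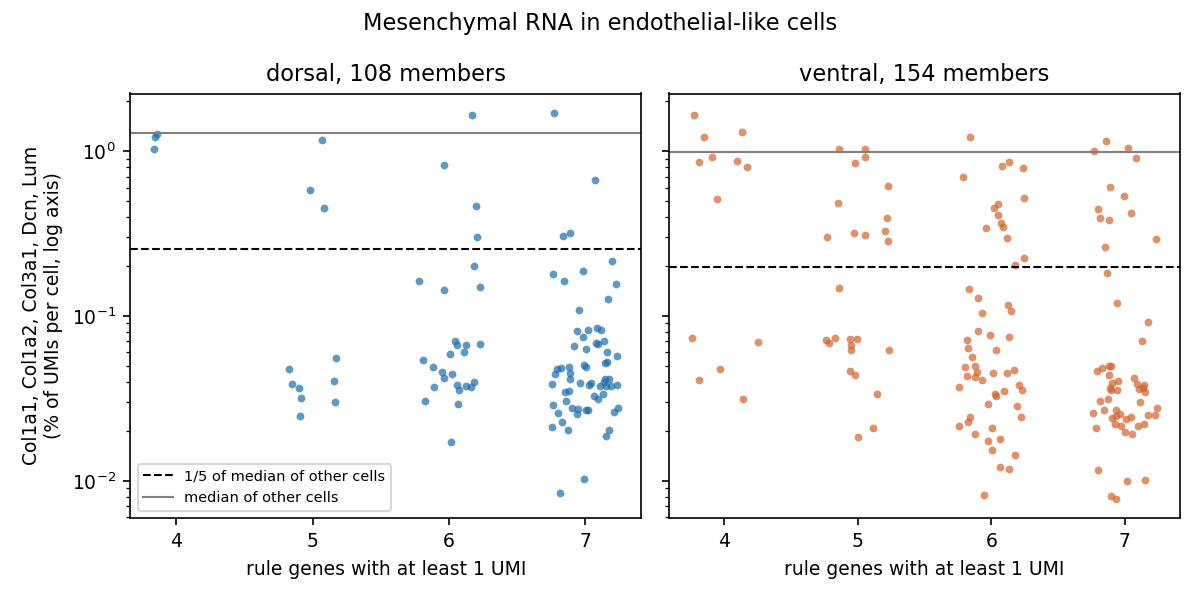
Each point is 1 endothelial-like cell, in the dorsal (left) and ventral (right) library. The x axis gives the number of rule genes with a UMI and the log y axis the percent of the cell's UMIs from 5 mesenchymal genes; the dashed line is the limit described in the text, and 14 dorsal and 47 ventral members lie above it, while the grey line is the median of the other cells.

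Dorsal and ventral members differed in the kinds of endothelial gene they carried. Dorsal members were higher in lymphatic and venous genes, and ventral members in a few arterial genes and in many secreted ligands. Adhesion and cytokine genes were higher in dorsal members and Acta2 in ventral members, but the other cells differed the same way. The median log2 ratio of the adhesion and cytokine list was 1.91 in members and 2.14 in the other cells. That of Acta2 was -3.83 and -2.76. Of 6494 genes that reached 20 CPM in members of at least 1 library, 670 (10.3%) differed at least 2-fold: 403 (6.21%) were at least 2-fold higher in dorsal members and 267 (4.11%) at least 2-fold higher in ventral members. In the other cells, 116 of the 403 and 90 of the 267 also differed at least 2-fold the same way. The share of all 6494 genes that did so there is not given, so neither overlap is called large or small. The median log2 ratio over the 6494 genes was 0.08 in members and 0.03 in the other cells. Scaling by trimmed means moved the median in members to -0.05, and list medians are to be read against that shift. Counts of genes past 2-fold in the lists below are to be read against the 10.3%.

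**Figure D2:**
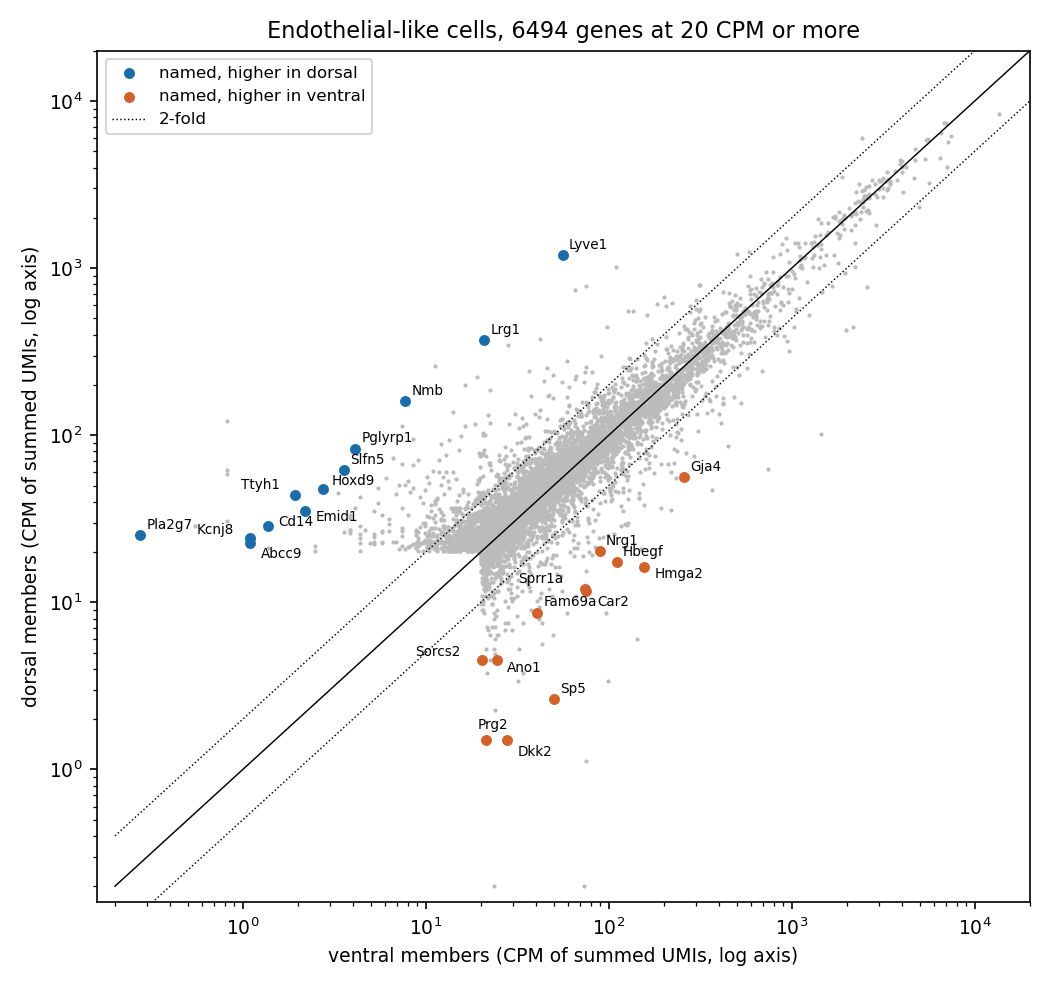
CPM of summed UMIs in dorsal members (y) against ventral members (x), both on log axes, for 6494 genes. Genes at 0 are drawn at 0.2. The solid line marks equal levels and the dotted lines 2-fold; blue points are the 12 named genes higher in dorsal and orange points the 12 higher in ventral members, and Lyve1 at 1202 against 56.05 CPM lies highest among the blue points.

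The gene with the highest level among those named for dorsal members was Lyve1 (ENSMUSG00000030787, chr7:110850607-110863239, minus strand, GRCm38), a hyaluronan receptor of lymphatic endothelium that some macrophages also carry. It had 1202 CPM in 57 of 108 dorsal members, against 56.05 CPM in 11 of 154 ventral members, a log2 ratio of 4.42 (4.22 to 4.63). Lrg1, a secreted glycoprotein linked to TGF-beta signalling in vessels, had 370.9 CPM in dorsal and 20.88 CPM in ventral members. Nmb, the peptide neuromedin B, had 160.2 CPM in dorsal members in 43 cells and 7.69 CPM in ventral members in 16 cells. Pglyrp1, which binds bacterial peptidoglycan, had 83.3 and 4.12 CPM. None of these 4 reached 4 CPM in the other cells of either library. Ttyh1, Kcnj8, Cd14, Abcc9, Slfn5, Hoxd9 and Emid1 were named by log2 ratios of 4.01 to 4.51, with at most 61.82 CPM in dorsal members. Pla2g7 had 67 UMIs in dorsal and 1 UMI in ventral members, so its ratio is loosely bounded, with a log2 counting interval of 3.99 to 11.85. Kcnj8 and Abcc9, the subunits of a potassium channel of pericytes, had 24.12 and 22.62 CPM in dorsal members and 1.10 CPM each in ventral members. Hoxd9, a homeobox factor, had 47.49 CPM in 31 dorsal members and 2.75 CPM in 4 ventral members, while the other cells held 0.600 and 0.0281 CPM. Most of these genes were highest in the lymphatic-like cluster 2 described below. Hoxd9, Emid1, Ttyh1 and Pglyrp1 had 178.4, 122.3, 132.4 and 308.0 CPM there, against at most 7.34, 8.73, 16.37 and 16.52 CPM elsewhere. Nmb and Lrg1 had 522.4 and 1126.8 CPM there, against at most 46.93 and 197.6 CPM in any other cluster. Kcnj8, Abcc9 and Pla2g7 were instead highest in cluster 1.

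Among ventral-high genes that were also at least 2-fold above the other ventral cells, the lowest ratio belonged to Sp5 (ENSMUSG00000075304, chr2:70474923-70477729, plus strand), a transcription factor gene known as a Wnt target. It had 2.64 CPM in 6 dorsal members against 50.28 CPM in 51 ventral members, a log2 ratio of -4.25 (-5.59 to -3.18). Dkk2, which encodes a secreted Wnt modulator, had 1.51 CPM in dorsal and 27.75 CPM in ventral members. Hmga2, a chromatin protein of growing embryonic cells, had 16.21 CPM in 14 dorsal members and 155.5 CPM in 107 ventral members, while the other cells of the libraries held 29.92 and 24.79 CPM. Prg2 had 1.51 CPM from a single dorsal member and 21.43 CPM from 20 ventral members, 1 of which held 33.3% of its UMIs. The carbonic anhydrase Car2, the small proline-rich gene Sprr1a, the chloride channel Ano1, the sortilin-family receptor gene Sorcs2 and Fam69a had log2 ratios between -2.69 and -2.17. Hbegf, Nrg1 and Gja4 complete the 12 and are described with their groups. All 24 named genes kept their direction under the 14 other settings. They were picked for extreme ratios in these same libraries, so a kept direction is no independent check. The sizes moved: the log2 ratio of Prg2 lay between -4.22 and -1.88, and that of Pglyrp1 between 2.6 and 5.21.

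The lymphatic list showed the highest median ratio of the endothelial lists. Of its 8 genes, 7 were at least 2-fold higher in dorsal members and none in ventral members, with a median log2 ratio of 3.11 against 0.29 for the same genes in the other cells. Prox1 (chr1:190118035-190170714, minus strand), the factor that sets lymphatic identity, had 100.3 CPM in 57 dorsal members and 20.6 CPM in 32 ventral members. Flt4, the receptor for VEGF-C, had 185.4 CPM in 87 dorsal members and 22.53 CPM in 43 ventral members. Ccl21a, a chemokine that guides dendritic cells into lymphatics, had 1014.7 CPM in 22 dorsal members and 109.9 CPM in 5 ventral members. The genome holds near-identical copies of this chemokine gene, so its count is uncertain. Mmrn1 and Reln had 200.9 and 67.09 CPM in dorsal members, against 16.48 and 7.42 CPM in ventral members. Pdpn, the surface glycoprotein podoplanin, had 81.79 CPM in dorsal and 20.88 CPM in ventral members but also 93.41 and 60.45 CPM in the other cells. Nts was the exception, with a log2 ratio of -0.60.

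A member with at least 3 of the 8 lymphatic genes was seen in 59 of 108 dorsal cells (54.6%, 44.8% to 64.2%) and 18 of 154 ventral cells (11.7%, 7.08% to 17.8%). A further 24 dorsal and 32 ventral members had exactly 2. After thinning to 8000 UMIs the shares with at least 3 were 36.1% and 3.25%. At least 6 of the genes were found in 27 dorsal and 4 ventral members. The shares with at least 3 are not specific to lymphatic cells. In the venous-like cluster 1 described below, Flt4 and Prox1 had a UMI in 83.3% and 52.1% of cells, and Lyve1 and Nts in 41.7% each. The lymphatic-like cluster 2 described below held 26 dorsal and 4 ventral members. Lyve1 and Prox1 had a UMI in 1.79% and 2.14% of the other dorsal cells and in 1.39% and 1.71% of the other ventral cells. Pdpn was found in 66.3% of the other dorsal cells. In barcodes with at most 100 UMIs, a measure of free RNA, Lyve1 had 8.93 CPM (dorsal) and 1.86 CPM (ventral). The other cells had 1.17 and 0.950 CPM of it. Ccl21a had 11.64 and 2.86 CPM in those barcodes, against 0.353 and 0.0922 CPM in the other cells.

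Of 9 macrophage genes outside the rule, 1 reached 20 CPM in members. This was Cd14, a receptor for bacterial lipopolysaccharide, with 28.65 CPM in 24 dorsal members and 1.37 CPM in 5 ventral members. Mrc1, a mannose receptor carried by macrophages and by lymphatic endothelium, had 14.7 CPM in 20 dorsal members and was at 0 in ventral members. The 9 genes summed to 81.0 CPM in dorsal and 19.5 CPM in ventral members, against 824 and 412 CPM in the other cells. C1qc and Adgre1, which define macrophages, had 0.754 and 0.377 CPM in dorsal members, below the limit of a count of 0. The part of macrophage RNA in the lymphatic values was not tested.

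Most venous genes were also higher in dorsal members. Of 9 genes in that list, 8 reached 20 CPM; 5 were at least 2-fold higher on the dorsal side and none on the ventral side, with a median log2 ratio of 1.45. In the other cells the median for these genes was 0.97. Nr2f2 (chr7:70351944-70366735, minus strand) had 229.9 CPM in 85 dorsal members against 49.45 CPM in 74 ventral members. Selp, the P-selectin that catches rolling leukocytes, had 242.0 CPM in 67 dorsal members and 36.54 CPM in 34 ventral members, while in the other cells it was lower in the dorsal library, at 7.78 against 31.09 CPM. The semaphorin and VEGF co-receptor Nrp2 had 174.5 and 46.98 CPM, and Ephb4, the receptor for ephrin-B2, had 97.25 and 35.44 CPM. Nr2f2, Nrp2 and Ephb4 were highest in the lymphatic-like cluster 2 described below, at 480.7, 358.3 and 149.7 CPM. The venous-like cluster 1 had 259.8, 180.1 and 122.2 CPM of them. Selp and Vwf were highest in cluster 1, at 575.2 and 80.77 CPM. Vcam1, an adhesion molecule that cytokines induce, had 354.7 CPM in dorsal and 570.9 CPM in ventral members, and Aplnr had a UMI in 6 dorsal and 0 ventral members. At least 3 of the 9 genes were found in 92.6% of dorsal and 66.9% of ventral members, or 70.4% and 31.2% after thinning; Nr2f2 and Vcam1 were also present in 56.0% and 93.8% of the other dorsal cells, so these shares are not specific to endothelium.

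Arterial genes ran the other way, by smaller ratios. Of 11 measured at 20 CPM or more among 12, none was at least 2-fold higher in dorsal and 3 were at least 2-fold higher in ventral members, with a median log2 ratio of -0.81 against -0.35 in the other cells. Gja4 (ENSMUSG00000050234, chr4:127311421-127314039, minus strand), a gap junction protein of arteries, had 56.16 CPM in 31 dorsal members against 257.1 CPM in 98 ventral members, a log2 ratio of -2.19 (-2.45 to -1.94). Sox17 (chr1:4490931-4497354, minus strand) had 119.1 CPM in 47 dorsal members and 413.2 CPM in 121 ventral members. The semaphorin Sema3g had 10.55 and 23.63 CPM. Dll4 and Gja5, also used as arterial markers, differed by less than 2-fold, with log2 ratios of -0.24 (-0.47 to -0.02) and -0.29 (-0.73 to 0.14). Mgp, a matrix protein on this list, had 1816.8 CPM in dorsal and 2893.7 CPM in ventral members, but 441.3 and 351.4 CPM in the members below the mesenchymal limit and 12477.2 and 7580.4 CPM in the other cells. At least 3 arterial genes were found in 78.7% of dorsal and 91.6% of ventral members, or 54.6% and 80.5% after thinning; Mgp, which counts among them, was found in 99.9% of the other dorsal cells.

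**Figure D3:**
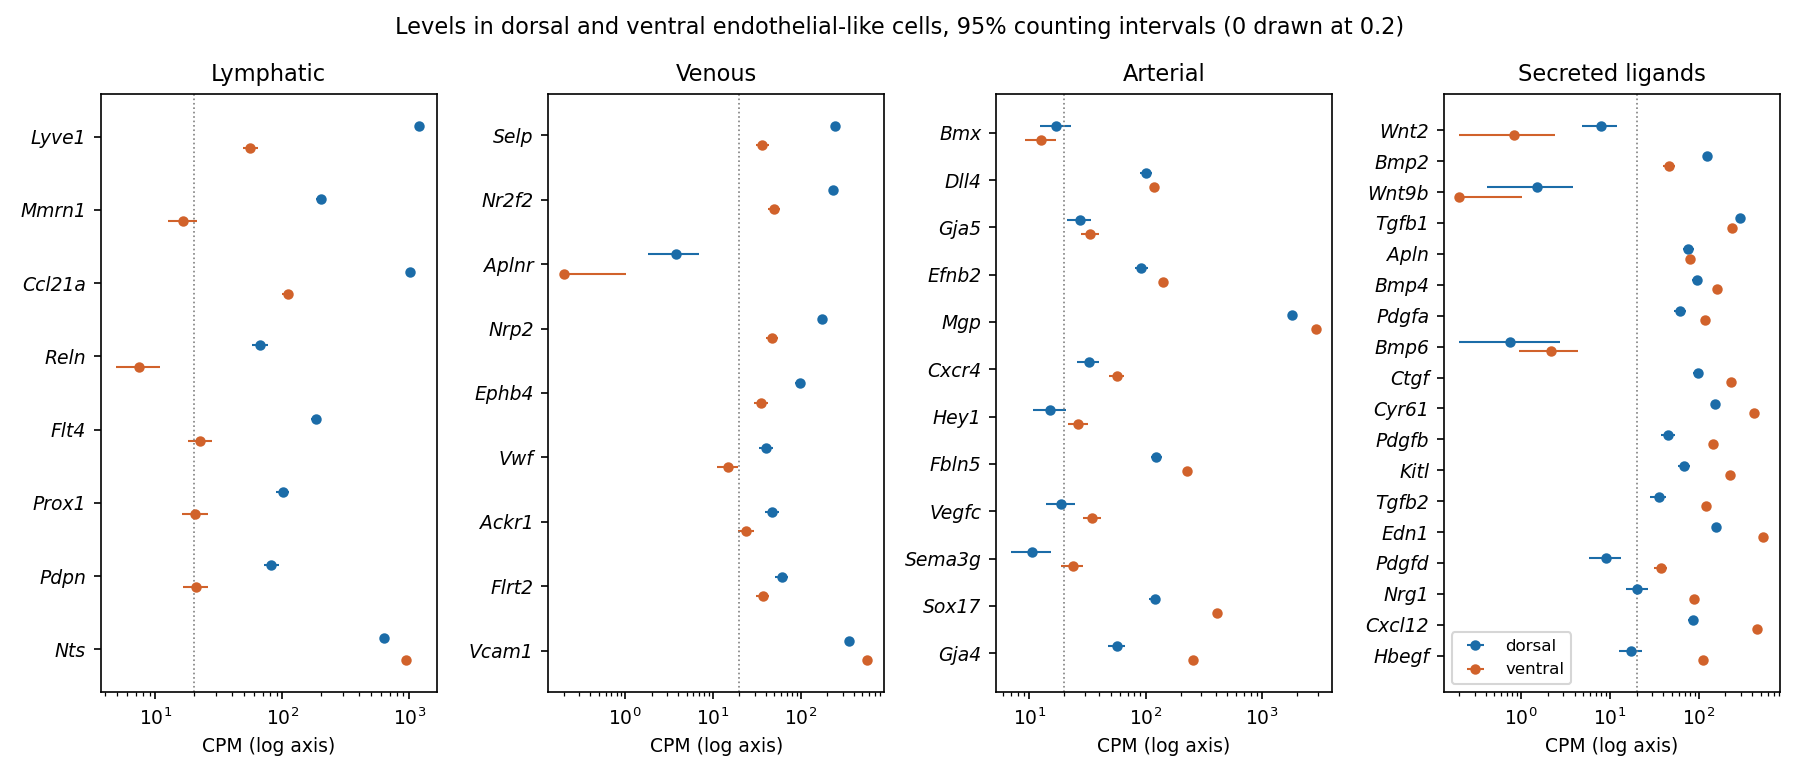
CPM on log axes of every gene in the lymphatic, venous, arterial and secreted ligand lists, in dorsal (blue, upper) and ventral (orange, lower) members, with exact Poisson 95% intervals for counting error; the dotted line is the minimum of 20 CPM. In the lymphatic panel 7 of 8 genes are at least 2-fold higher in dorsal members, and in the ligand panel 10 of 18 are at least 2-fold higher in ventral members.

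Secreted ligands were the list with most genes at least 2-fold higher in ventral members. Among 15 of 18 genes that reached 20 CPM, 1 was at least 2-fold higher on the dorsal side and 10 on the ventral side, with a median log2 ratio of -1.70 against -0.67 in the other cells. Edn1 (chr13:42301476-42307990, plus strand), the vasoconstrictor endothelin-1, had 155.3 CPM in 42 dorsal members and 526.1 CPM in 108 ventral members. Cxcl12, the chemokine that attracts Cxcr4-bearing cells, had 86.69 CPM in dorsal and 447.8 CPM in ventral members, but 486.8 and 600.0 CPM in the other cells. Pdgfb, which recruits pericytes, had 44.85 CPM in 43 dorsal and 145.9 CPM in 104 ventral members, with at most 2.25 CPM in the other cells. Kitl, the ligand of Kit, had 68.6 and 227.2 CPM, against 12.35 and 9.54 CPM in the other cells. Hbegf and Nrg1, ligands of ErbB receptors, had 17.34 and 20.35 CPM in dorsal members and 110.4 and 89.29 CPM in ventral members. Bmp2 was the exception with 125.1 CPM in 31 dorsal members (28.7%) and 45.88 CPM in 45 ventral members (29.2%). A single dorsal member held 25.9% of its dorsal UMIs.

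Genes of the VEGF list were at least 2-fold higher on either side, and 1 gene of the angiopoietin list on the dorsal side. Over all genes, 10.3% differed this far. In the VEGF list of 12, 11 genes reached 20 CPM, 2 were at least 2-fold higher in dorsal members (Flt4 and Nrp2) and 2 in ventral members, with a median of 0.29. Those higher in ventral members were Nrp1, a co-receptor of VEGF-A, with 99.88 CPM in dorsal and 215.4 CPM in ventral members, and Pgf, placental growth factor, with 391.6 and 910.7 CPM. Angpt2, which modulates the receptor Tek, had 216.0 CPM in dorsal and 65.39 CPM in ventral members, while in the other cells it had 26.63 and 47.38 CPM. Among members it had 630.3 CPM in the lymphatic-like cluster 2 described below, and 53.54 to 80.76 CPM in the other clusters. Tek itself had 61.82 and 39.56 CPM. Eng, a co-receptor for BMP9, had 522.0 CPM in dorsal and 162.6 CPM in ventral members, against 30.93 and 74.83 CPM in the other cells.

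Of 14 Notch pathway genes, 9 reached 20 CPM, and 1 was at least 2-fold higher in dorsal members and none in ventral members, beside 10.3% of all genes that differed this far, with a median of -0.24. That gene was the ligand Dll1, with 21.86 CPM in 39 dorsal members and 2.47 CPM in 8 ventral members. The receptor Notch1 had 101.0 and 130.8 CPM and the target Nrarp 63.32 and 75.0 CPM. Of 21 endothelial transcription factors, 18 reached the minimum, 2 were at least 2-fold higher on the dorsal side and 1 on the ventral side. These few stand beside the same 10.3% of all genes and are not read as a result about the list. Sox18, a factor that acts upstream of Prox1, had 84.81 CPM in dorsal and 27.2 CPM in ventral members, and Meox1 had 42.97 and 9.34 CPM; the third was Sox17. Erg and Hhex had log2 ratios of 0.11 and 0.00.

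Adhesion and cytokine genes were mostly higher in dorsal members, and the same list was also higher in the other dorsal cells. Of 16, 15 reached 20 CPM, 11 were at least 2-fold higher on the dorsal side and 2 on the ventral side, with a median log2 ratio of 1.91 in members and 2.14 in the other cells. Cxcl1, a neutrophil chemokine, had 778.3 CPM in dorsal and 74.73 CPM in ventral members, beside 2253.3 and 267.0 CPM in the other cells and 1709.7 and 435.8 CPM in barcodes with at most 100 UMIs. Icam1, which binds leukocyte integrins, had 194.5 and 60.44 CPM in members, and Sele, E-selectin, 48.25 and 8.52 CPM. Csf3, a granulocyte growth factor, had 62.19 CPM in 22 dorsal members and 0.824 CPM in 3 ventral members. How much of this RNA came from outside the members was not tested. Those at least 2-fold higher in ventral members were the membrane chemokines Cx3cl1 and Cxcl16.

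Capillary genes were mostly low. Of 13, 5 reached 20 CPM, and 3 of these were at least 2-fold higher in dorsal members, beside 6.21% of all genes. Gpihbp1, which anchors lipoprotein lipase to capillary endothelium, had 222.0 CPM in 69 dorsal members and 18.96 CPM in 22 ventral members, while Lpl itself had 84.05 and 36.26 CPM beside 295.3 and 222.5 CPM in the other cells. Car4, a marker of lung and heart capillaries, was at 0 in members of both libraries. Of 24 endothelial genes outside the rule, 23 reached 20 CPM, and 6 were at least 2-fold higher on the dorsal side and none on the ventral side. Plvap, the protein of fenestral diaphragms, had 251.8 CPM in dorsal and 46.15 CPM in ventral members. The adrenomedullin receptor partners Ramp2 and Calcrl had 619.7 and 57.29 CPM in dorsal members and 221.2 and 20.6 CPM in ventral members.

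Of 9 endocardial genes, 5 reached 20 CPM, and none was at least 2-fold higher in dorsal members. Nrg1 was the one at least 2-fold higher in ventral members, beside 4.11% of all genes. Npr3, a natriuretic peptide receptor of endocardium, had 17.34 CPM in 22 dorsal and 23.08 CPM in 46 ventral members. Nfatc1, a factor of valve endocardium, had 33.17 and 20.6 CPM in members, and 26.07 and 6.53 CPM in the other cells. Among members it was highest in the lymphatic-like cluster 2 described below, at 84.91 CPM, against at most 28.38 CPM in any other cluster. At least 3 endocardial genes were found in 35.2% of dorsal and 37.7% of ventral members, or 16.7% and 11.7% after thinning, which turned the order. Isl1, the gene at the centre of the study, had a UMI in 3 dorsal and 7 ventral members, or 1.13 and 2.75 CPM, beside 1.15 and 1.49 CPM in the other cells, and this level is near the limit of a count of 0. Among the cardiac factors, Tbx1 had 61.06 CPM in 35 dorsal members and 10.99 CPM in 18 ventral members, and Hand2 had 31.28 and 77.2 CPM. Nkx2-5 and Hand1 were at 0 in members of both libraries.

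Several contractile and mesenchymal genes were higher in ventral members. In the list of genes linked to endothelial-to-mesenchymal transition, 12 of 15 reached 20 CPM, none was at least 2-fold higher on the dorsal side and 6 on the ventral side, with a median of -1.06 beside -0.47 in the other cells. Acta2 (chr19:34241090-34255590, minus strand), smooth muscle actin, had 101.8 CPM in 40 dorsal members and 1450.3 CPM in 149 ventral members. The other cells had 867.2 and 5873.6 CPM, and barcodes with at most 100 UMIs 1687.8 and 5276.9 CPM. In members below the mesenchymal limit Acta2 had 70.97 CPM in dorsal and 517.1 CPM in ventral members, with a UMI in 31.9% and 96.3% of them, beside 75.8% of the other dorsal and 99.6% of the other ventral cells. Tagln, an actin-binding protein of smooth muscle, had 35.48 and 205.5 CPM in those members. The cadherin Cdh2 had 25.63 CPM in all dorsal and 107.4 CPM in all ventral members. The transition factors Snai1 and Zeb2 differed by less than 2-fold, and Zeb1, at 152.3 and 93.41 CPM, was likewise. The mesothelial gene Msln was at 0 in dorsal members and 73.35 CPM in 12 ventral members, of which those above the mesenchymal limit had 186.3 CPM and those below it 2.24 CPM. The part of RNA from other cells in these values was not tested.

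Clustering of the members alone gave 6 clusters, described here by their leading genes and markers. Each of 5 held mainly members of 1 library, so a cluster may stand for its library as much as for a kind of cell. Cluster 2, with 26 dorsal and 4 ventral members, had 7 of the 8 lymphatic markers and 3 of the 9 venous markers, and was lymphatic-like. Its Prox1 level was 352.6 CPM, with a UMI in 100% of its cells, and Lyve1, Ccl21a, Mmrn1 and Reln were among its 10 leading genes; Cd68, Cd14 and Mrc1 were also at least 2-fold above the other members. Cluster 1, with 48 dorsal and 0 ventral members, had 5 of the 9 venous markers and was venous-like. It was led by Selp, the endothelin receptor Ednrb, Gpr182 and Neurl3, and it held Kcnj8 and Abcc9. Cluster 5, with 3 dorsal and 62 ventral members, had 6 of the 12 arterial markers and was arterial-like, with Pgf, Gja4, Sox17 and Kitl among its leading genes. It also had 4 of 13 markers of tip cells, the leading cells of vessel sprouts, among them Pgf.

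The remaining clusters were left unnamed. Cluster 0, with 17 dorsal and 0 ventral members, was led by Bmp2 at 502.9 CPM against 39.14 CPM in the other members. It carried Gpihbp1, Ly6c1 and Igfbp3, 5 tip cell markers and 3 arterial markers. Markers were counted against all other members, so cluster 5 was among the cells that cluster 0 was compared with. Dll4, Gja5 and Cxcr4 were higher in cluster 0, at 324.9, 89.94 and 113.8 CPM, against 226.4, 58.08 and 106.4 CPM in cluster 5. Gja4, Sox17, Hey1 and Sema3g were lower, at 60.57, 334.1, 38.54 and 44.05 CPM, against 393.5, 626.5, 50.9 and 46.99 CPM. Arterial genes were thus not confined to the mainly ventral cluster 5. Cluster 3, with 2 dorsal and 55 ventral members, was led by Clu, Nrg1, Edn1 and Sp5. Its Edn1 level was 1253.7 CPM, against 204.8 CPM in the other members. Cluster 4, with 12 dorsal and 33 ventral members, had all 8 mesenchymal markers, a median of 36921 UMIs and 0.828% of UMIs from the 5 mesenchymal genes, against at most 0.0707% in the other clusters. Nts crossed these boundaries, with 1249.1 CPM in cluster 2, 360.6 CPM in cluster 3 and 1594.2 CPM in cluster 5. With cluster 2 left out, the median log2 ratio of the lymphatic list was 2.25.

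**Figure D4:**
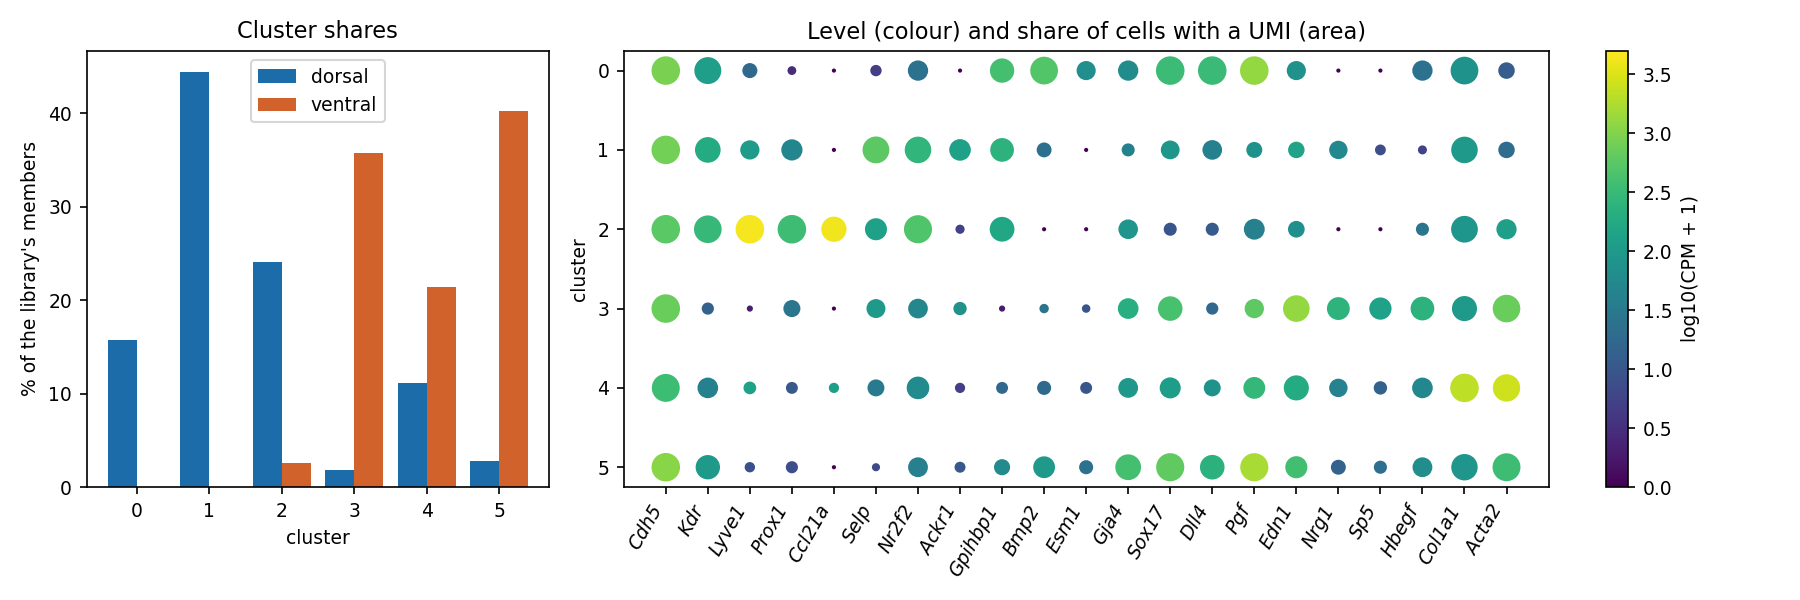
Left, the percent of dorsal (blue) and ventral (orange) members in each of 6 clusters, where cluster 1 holds 44.4% of dorsal and 0% of ventral members and cluster 5 holds 2.78% and 40.3%. Right, the level of selected genes in each cluster as log10(CPM + 1) by colour and the percent of its cells with a UMI by dot area; Lyve1 and Ccl21a are highest in cluster 2, and Gja4 and Sox17 in cluster 5.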

How the data were processed

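The assay was 10x Genomics 3' single-cell RNA sequencing, 1 library per domain. Per the submitters' processing notes, reads were processed with Cell Ranger 3.0.2 against mm10 (annotation release: not given in the sources used here). Deposited by the authors were raw UMI counts per gene and barcode, neither normalised nor filtered for cells, which total 246920028 UMIs (dorsal) and 264822916 UMIs (ventral). Rows sharing a symbol were summed (58 symbols). Of 28625 symbols, 28316 matched GENCODE M21, which gave gene positions on GRCm38.

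Members' counts were summed per library and given as CPM of the sum. Poisson, Clopper-Pearson and conditional binomial intervals are at 95% and cover counting error only. With 1 library per domain no test was made. Ratios of 2-fold between domains and 4-fold against other cells are descriptions of size. Counts below 3 were raised to 3 in ratios, while the intervals used the counts as they were. Named genes were the 12 highest and 12 lowest ratios between domains among genes at 20 CPM or more, with a UMI in at least 10 members and at least 2-fold over the other cells of the higher library; the 25 highest over other cells at 50 CPM or more; up to 4 per list; and Isl1. Some others were named as examples after their values were seen. Members and the 33 gene lists were chosen with earlier results of these data known. Members were clustered with scanpy 1.11.5 (1500 variable genes, 20 components, 15 neighbours, Leiden resolution 0.5, no integration). A marker counted for a cluster when at least 25% of the cluster had a UMI of it, at 2-fold or more the level of the other members, a threshold set after the clusters were seen. Doublets were kept in the main values: Scrublet's automatic threshold marked 5.86% of ventral cells but 0.0896% of dorsal cells, too few to have worked, so the dorsal cells with the highest scores up to the expected share, 637, were taken instead. Trimmed-mean scaling used edgeR 4.0.16. The ratio code was tested on simulated data.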

Additional observations from a re-analysis of the deposited data

How the results depend on the processing

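The log2 ratio of the members' shares lay between -0.45 and 0.07 over its settings. Without an expression minimum, 1401 genes were at least 2-fold higher in dorsal members, 740 in ventral members, and 782 at least 4-fold over other cells in both libraries; no other setting moved these counts by over 1.5 times. The lymphatic median of 3.11 was 2.54 at 4000 UMIs, 2.71 without members over the mesenchymal limit, 2.52 after thinning, 2.60 with cells weighted equally, 3.50 without each gene's top member, and 2.25 without the lymphatic-like cluster, a setting chosen after seeing the data. The arterial median of -0.81 was -1.16 without barcodes marked by Scrublet. The median of secreted ligands, -1.70, was -1.35 without a minimum and -1.41 without the lymphatic-like cluster. The cardiomyocyte marker median (1.66, 2 genes at the minimum) was -1.31 with at least 3 rule genes and -3.25 without each gene's top member; the cause was not tested. The cell cycle median of 0.60 was -0.60 without the lymphatic-like cluster and -0.20 with at least 3 rule genes, so no direction is given for it. Of 432 list medians under other settings, 24 in 10 lists had the opposite sign to the main value, and the main value was past 2-fold for 2 of these, both of the cardiomyocyte list. No paired analysis was possible because each domain has 1 library. Depth limits genes under 1.13 CPM in dorsal and 0.824 CPM in ventral members, where a count of 0 cannot be told from absence.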

Other observations

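Cell cycle genes rested on few members, and the sign of their median ratio changed with the lymphatic-like cluster left out. The 18 cell cycle genes summed to 634 CPM in dorsal and 447 CPM in ventral members, against 222 and 545 CPM in the other cells. Mki67, a marker of cycling cells, had 53.15 CPM in 12 dorsal members and 13.19 CPM in 13 ventral members, and Top2a, the topoisomerase of dividing cells, 62.19 CPM in 11 and 33.24 CPM in 15.

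Haemostasis genes were split. Of 11 at 20 CPM or more among 13, 3 were at least 2-fold higher on the dorsal side and 3 on the ventral side. Over all genes, 6.21% and 4.11% differed this far. Tfpi2, a protease inhibitor, had 66.72 CPM in dorsal and 8.52 CPM in ventral members, and Thbd, thrombomodulin, 66.34 and 28.57 CPM. Plat, tissue plasminogen activator, had 75.76 CPM in dorsal and 166.8 CPM in ventral members, and Procr, the protein C receptor, 103.3 and 238.2 CPM. Among guidance genes, Sema3a had 138.3 CPM in 62 dorsal members and 14.01 CPM in 26 ventral members, and Sema6a 114.2 and 33.79 CPM. The kinase receptor Kit had 170.7 CPM in 83 dorsal and 136.5 CPM in 115 ventral members, with at most 2.78 CPM in the other cells.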
